A study of Mus musculus with 16 samples.

Results

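Alveolar macrophages (AMs) that were p16-positive after chronic inhalation of lipopolysaccharide (LPS) were compared with p16-negative AMs from control lungs, a contrast in which inflammation and p16 content change together. The 4 LPS p16-positive and 4 PBS p16-negative libraries were chosen by their labels from 16, and 5293 of 7946 listed genes, those with at least 30 UMIs (unique molecular identifiers, which tag single RNA molecules) over the 8 libraries, were tested. The animals were female C57BL/6 mice that breathed an aerosol for 30 min, 3 times a week over 10 weeks. The aerosol was PBS alone, or PBS with Escherichia coli LPS at 0.5 mg/ml. The labels name no engineered allele, and the methods name a young and an old age for the whole study without saying which these mice were. Cells that carried CD45, CD11c and Siglec-F at the surface were stained inside for p16 and sorted into a positive and a negative fraction, with 5000 cells per sample. The labels number the libraries as biological replicates and say that cDNA libraries came from pooled samples, without saying what was pooled. Neither they nor the methods say which mice went into which library, and the p-values therefore describe the variation among libraries, which may be technical.

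AMs live in the air spaces, where they clear surfactant lipid, dust and microbes, and their lipid-handling programme depends on the receptor PPAR-gamma. LPS is sensed by Toll-like receptor 4, which activates NF-kB and interferon signalling and induces cytokines, acute phase proteins and complement. p16, one of the proteins made from Cdkn2a, inhibits the cell cycle kinases CDK4 and CDK6 and is used as a marker of senescent cells.

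The PBS p16-negative libraries held 15755 to 224301 UMIs and the LPS p16-positive libraries 118703 to 1176358, so that a count of 1 UMI was worth up to 63.5 CPM (UMIs scaled to a library total of 1000000) in the shallowest library and 0.85 CPM in the deepest. A list of 52 AM identity genes, of which 47 were in the table, held 1.77 to 3.71% of UMIs in PBS p16-negative and 1.61 to 5.69% in LPS p16-positive libraries. Of the genes behind the sort, Itgax (CD11c) had 31.2 to 164 CPM and 54.5 to 390.2 CPM in these groups, and Ptprc (CD45) 8.92 to 127 CPM and 11.2 to 33.7 CPM. Siglecf had 0, 16.4, 17.0 and 8.92 CPM against 5.6, 3.4, 8.42 and 14.5 CPM and was too sparse to be tested. The secretory airway gene Scgb1a1 took 15.2% of the UMIs of PBS p16-negative replicate 1, the shallowest library. It took 3.97% of LPS p16-positive replicate 2 and 0.0810 to 0.993% of the other libraries compared, so both groups hold a library with much airway RNA.

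No single gene passed the test across all genes. With edgeR's quasi-likelihood test (4 against 4 libraries, with the other 8 libraries in the fit for the spread) 0 of 5293 genes were higher (0%) and 0 lower (0%) at an adjusted p of 0.05. At an unadjusted p of 0.05, 390 genes (7.37%) passed where 265 would be expected, of which 329 were higher (6.22%) and 61 lower (1.15%). The lowest adjusted p, 0.0956, was shared by 4 genes, of which 3 were higher in LPS p16-positive cells: Saa3, an acute phase apolipoprotein of the serum amyloid A family, Mmp14, a membrane-bound matrix metalloproteinase, and Micall2, an adaptor of junction trafficking. The other, Acaa1b, a peroxisomal thiolase of fatty acid oxidation, was lower. DESeq2 called 10 genes on the same counts, of which Saa3, Mmp14, Crip1, Gm1673, C1qa, Cd63, Il11ra1, Lcn2 and Stac2 were higher and Acaa1b was lower. voom with sample weights called 0, with 348 at an unadjusted p under 0.05. Without LPS p16-positive replicate 4, the deepest library, edgeR called 34 genes higher and 3 lower. The higher ones included Saa3, Mmp14 and Micall2, but also airway genes such as Foxj1, Ccdc78, Tekt1, Dnah10, Spint2, Cldn3 and St14. For these airway genes LPS p16-positive replicate 2 had the highest value of its group.

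All 4 LPS p16-positive values lay above all 4 PBS p16-negative values for 126 genes (2.38%) and below them for 57 (1.08%). Scaled by TMM, which corrects library totals for composition, the split was 175 (3.31%) and 30 (0.567%). The TMM scaling also placed the median gene at 0.19 on the log2 scale, with 3378 genes positive and 1915 negative, so that a gene at 0.19 sat at the centre of all genes. On library totals the median log2 ratio of group mean CPM, with a constant added to each mean, was 0.096. That is not the same measure as the edgeR value. A count of 0 in PBS p16-negative replicate 1 allows up to 190.4 CPM (3 UMIs), so for genes under that level a separation of the groups rests on the other 3 PBS p16-negative libraries.

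The leading genes' start regions are shown because Saa3, Mmp14 and Acaa1b are 3 of the 4 genes at the lowest adjusted p. Each is the 250 bases before a RefSeq transcription start on GRCm38.p6, written 5′ to 3′ on the gene's strand. The Saa3 stretch is chr7:46715677-46715926 (minus strand), that of Mmp14 chr14:54431348-54431597 (plus strand) and that of Acaa1b chr9:119157094-119157343 (minus strand). The Saa3 stretch lies inside the span of that gene, 46711998 to 46719615, so the start used is not its outermost one. Capitals mark matches, on either strand, to 1 of 5 motifs searched, which were TGANTCA (AP-1), TTNNGCAA (C/EBP) and the NF-kB, interferon response and antioxidant response motifs.
Saa3: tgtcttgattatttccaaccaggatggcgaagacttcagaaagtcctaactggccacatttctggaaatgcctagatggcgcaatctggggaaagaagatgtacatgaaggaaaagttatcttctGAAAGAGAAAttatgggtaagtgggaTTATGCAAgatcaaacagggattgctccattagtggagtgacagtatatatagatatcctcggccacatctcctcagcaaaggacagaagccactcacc
Mmp14: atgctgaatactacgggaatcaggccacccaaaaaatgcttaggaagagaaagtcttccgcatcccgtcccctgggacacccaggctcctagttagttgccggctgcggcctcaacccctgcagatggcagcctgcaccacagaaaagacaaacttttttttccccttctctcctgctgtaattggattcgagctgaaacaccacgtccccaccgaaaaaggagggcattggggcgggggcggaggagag
Acaa1b: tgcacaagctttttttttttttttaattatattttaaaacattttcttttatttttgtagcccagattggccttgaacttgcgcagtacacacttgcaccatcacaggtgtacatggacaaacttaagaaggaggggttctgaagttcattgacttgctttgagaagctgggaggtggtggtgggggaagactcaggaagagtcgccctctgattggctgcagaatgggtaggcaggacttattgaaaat
Saa3 held 1 interferon response match, GAAAGAGAAA, 125 to 116 bases before the start, and 1 C/EBP match, TTATGCAA, 99 to 92 bases before it. These motifs were present in 2.98 and 9.56% of 32851 RefSeq start regions of the same length. The Mmp14 and Acaa1b stretches held no match to the 5 motifs. Among the 252 start regions found for genes higher at an unadjusted p of 0.05, 1.59% held the NF-kB motif, beside 1.51% of 4306 regions of tested genes. The interferon response motif was in 3.17 and 2.81% of these, and the C/EBP motif in 9.52 and 8.01%.

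Most acute phase and complement genes had positive values, as did most of all tested genes, and no gene passed the threshold. Of 10 tested complement genes 9 had positive values, with a median log2 fold change of 1.61 beside 0.19 over all genes. 6 were higher at an unadjusted p of 0.05, and for 3 the groups did not overlap, where 6.22% and 2.38% of all genes did so. These shares are also the background of the lists that follow. For their counts of positive members the background is 3378 of 5293 genes. The complement list held 0.0317 to 0.136% of UMIs in PBS p16-negative and 0.169 to 0.566% in LPS p16-positive libraries. Of 13 tested acute phase and secreted defence genes 10 were positive (median 1.21), 4 were higher at an unadjusted p of 0.05 and 2 did not overlap. Their summed share overlapped, at 0.387 to 0.899% against 0.853 to 2.57%. Saa3 had 0, 148, 136 and 44.6 CPM in the PBS p16-negative replicates 1 to 4 and 162, 1545, 480.2 and 2537 CPM in the LPS p16-positive ones. Every LPS p16-positive library was above every PBS p16-negative one, although the LPS p16-positive values spread over more than 1 order of magnitude. The log2 fold change was 3.83 (SE 0.81, adjusted p = 0.0956, edgeR). Saa3 lies on chromosome 7 (46711998 to 46719615).

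Lcn2, which binds bacterial siderophores, had 63.5, 98.7, 8.52 and 53.5 CPM against 44.8, 371, 185 and 613 CPM. LPS p16-positive replicate 1 lay within the PBS p16-negative range, and the fold change was 2.76 on the log2 scale (SE 0.65, adjusted p = 0.126). Orm1, an acute phase plasma glycoprotein with close copies among which reads could be shared, had 0 UMIs in the 4 PBS p16-negative libraries and 51 UMIs in the 4 LPS p16-positive ones, at 8.42 to 37.4 CPM. Against a floor of 3 UMIs over the group this was at least 4.02-fold higher.

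C1qa encodes a chain of C1q, which starts the classical complement pathway and is made by tissue macrophages. It had 63.5, 329, 349 and 192 CPM in PBS p16-negative and 470.1, 854, 1264 and 2130.3 CPM in LPS p16-positive libraries, without overlap. Its log2 fold change was 2.39 (SE 0.58, adjusted p = 0.126). The other chains overlapped between groups, with C1qb at 16.4 to 63.5 CPM against 11.2 to 394 CPM and C1qc at 0 to 65.8 CPM against 11.2 to 389 CPM. Cfb, factor B of the alternative pathway, had 63.5, 164, 213 and 236 CPM against 302, 626, 261 and 1057 CPM and did not overlap (1.72, SE 0.55, adjusted p = 0.233). C3, the central complement component, was at 63.5 to 401 CPM against 396 to 1161 CPM and overlapped only at 396 and 401 CPM.

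**Figure D1:**
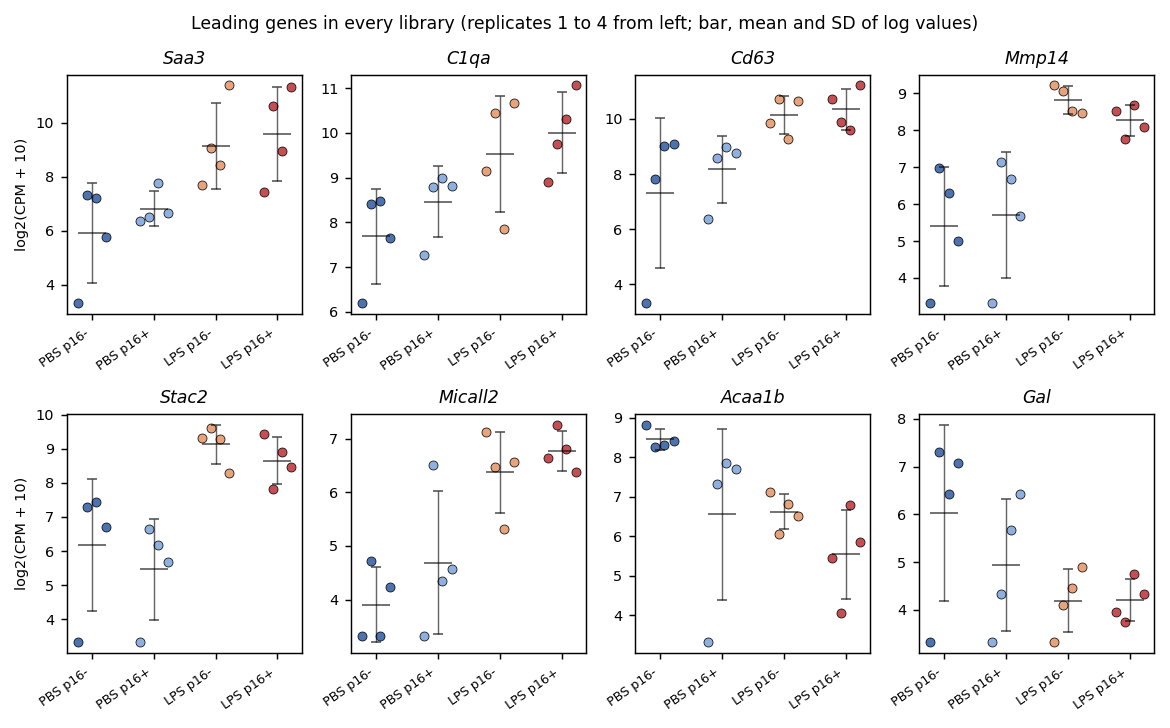
Values of 8 genes in all 16 libraries as log2(CPM + 10), with replicates 1 to 4 from left to right in each group, and the mean and SD of the log values as a bar. Saa3, C1qa, Cd63, Mmp14, Stac2 and Micall2 lie higher in all 4 LPS p16-positive libraries than in all 4 PBS p16-negative ones, Acaa1b lies lower, and Gal overlaps only through PBS p16-negative replicate 1 at 0 CPM.

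Genes of lipid-laden and phagocytic macrophages were mixed. Of 19 tested lipid-associated genes 15 were positive, with a median of 0.30 near that of all genes, and 4 were higher at an unadjusted p of 0.05. Cd63, a tetraspanin of late endosomes and lysosomes, had 0, 214, 511 and 535 CPM against 1679, 943, 767 and 2370.0 CPM, with every LPS p16-positive library above (2.15, SE 0.59, adjusted p = 0.189). Trem2, a lipid-sensing receptor, was at 0 to 115 CPM and 61.6 to 646 CPM, and Apoe, a lipid carrier, at 254 to 576 CPM and 257 to 2721 CPM. Both overlapped. Among 36 tested lysosomal genes 25 were positive (median 0.43), 4 were higher and 1 was lower at an unadjusted p of 0.05. Lgmn, the lysosomal protease legumain, had 444, 395, 324 and 294 CPM against 593, 459.5, 834 and 1334 CPM, without overlap, and the protease gene Ctsh had at most 98.7 CPM against at least 95.1 CPM.

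Chemokine genes were split. Of 11 tested members 9 were positive (median 0.84), 1 was higher and 1 lower at an unadjusted p of 0.05. Pf4, a CXC chemokine known from platelets and macrophages, had 0, 82.2, 170.4 and 22.3 CPM against 179, 272, 320.1 and 1158 CPM (2.78, SE 0.72, adjusted p = 0.155), and it stands on the list of platelet and red cell markers here. Cxcl16, a scavenger receptor and ligand of CXCR6, was at 13.4 to 132 CPM against 92.7 to 546 CPM. Ccl22, which attracts regulatory T cells through CCR4, was at 0 to 89.2 CPM against 3.4 to 16.8 CPM (-2.40, SE 0.82, adjusted p = 0.282). Neither cytokines (3 of 6 tested positive) nor NF-kB subunits and inhibitors (8 of 11 positive, median 0.07) had a median above that of all genes. 13 of 14 interferon-stimulated genes were positive (median 0.64) with 1 higher at an unadjusted p of 0.05. MHC class I genes had 16 of 19 positive (median 0.77), among them Tap1, the peptide transporter, at 49.3 to 190.4 CPM against 102 to 348 CPM. H2-T23, a class Ib gene whose reads may be shared with close relatives, was at 0 to 187 CPM against 163 to 774 CPM. Its log2 fold change of 1.52 became 0.67 without LPS p16-positive replicate 4. MHC class II genes had 7 of 10 positive (median 0.21) and none passed at an unadjusted p of 0.05.

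Mmp14 and 7 genes named after their values were seen, Stac2, Micall2, Src, Il11ra1, Crip1, Pla2g7 and Pla2g2d, also separated the groups. Mmp14 activates other metalloproteinases at the membrane and cleaves collagen. It had 0, 115, 68.2 and 22.3 CPM in PBS p16-negative libraries and 358, 208, 404 and 264 CPM in LPS p16-positive ones, a gap between 115 and 208 CPM with no overlap. Its log2 fold change was 2.64 (SE 0.56, adjusted p = 0.0956). Micall2 had 0, 16.4, 0 and 8.92 CPM against 89.5, 143, 101 and 73.1 CPM (3.82, SE 0.83, adjusted p = 0.0956). Stac2, of a family of adaptors that bind voltage-gated calcium channels, had 0, 148, 162 and 93.6 CPM against 677, 214, 472 and 345 CPM (2.02, SE 0.52, adjusted p = 0.155). Each of these genes was higher in 4 of 4 LPS p16-positive libraries than in any PBS p16-negative library.

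Src, a tyrosine kinase of adhesion and Fc receptor signalling, had at most 17.0 CPM in PBS p16-negative and 61.6 to 121 CPM in LPS p16-positive libraries (3.29, SE 0.81, adjusted p = 0.126). Il11ra1, the receptor subunit for interleukin 11, was at 0 to 263 CPM against 368 to 749.9 CPM, and reads could be shared with its copy Il11ra2. Crip1, a small LIM-domain protein, was the most abundant of these genes, at 825, 1825, 1423 and 1476 CPM against 4192, 3166, 4178 and 3537 CPM (1.61, SE 0.48, adjusted p = 0.210). Its LPS p16-positive values varied little, and the lowest of them was well above the highest PBS p16-negative value. The secreted phospholipase genes Pla2g7 and Pla2g2d also did not overlap: Pla2g7, whose product inactivates platelet-activating factor, was at 0 to 44.6 CPM against 44.8 to 248 CPM, and Pla2g2d was at 0 to 22.3 CPM against 50.5 to 356 CPM. Of 20 tested matrix and metalloproteinase genes 15 were positive (median 1.22) and 6 were higher at an unadjusted p of 0.05. Without LPS p16-positive replicate 2 the median was 0.81, with 3 higher and 1 lower. Among them Adam8, a membrane metalloproteinase of leukocytes, was at 0 to 17.0 CPM against 0 to 167 CPM, and overlapped because LPS p16-positive replicate 3 was at 0.

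The named genes of lipid metabolism and AM identity had mostly negative values. Acaa1b had 444, 296, 307 and 334 CPM in PBS p16-negative and 33.6, 6.81, 101 and 48.5 CPM in LPS p16-positive libraries. The PBS p16-negative values were tight and all of them were at least 296 CPM, whereas no LPS p16-positive value exceeded 101 CPM. The log2 fold change was -2.72 (SE 0.56, adjusted p = 0.0956). Acaa1b lies on chromosome 9 (119148043 to 119157093) and has a close copy, Acaa1a, with which reads could be shared. Cidec, a lipid droplet protein, was at 63.5 to 596 CPM against 23.8 to 161 CPM, and Fabp1, a fatty acid binding protein, at 0 to 125 CPM against 3.4 to 28.0 CPM. Dgat2, which makes triglycerides and was named after its values were seen, had 190.4, 65.8, 93.7 and 58.0 CPM against 22.4, 30.6, 33.7 and 25.5 CPM and did not overlap (-1.43, SE 0.54, adjusted p = 0.390). Over 21 tested genes of PPAR-gamma and lipid handling the median was 0.05, with 2 higher and 5 lower at an unadjusted p of 0.05, where 1.15% of all genes were lower.

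Fabp4, a classical PPAR-gamma target, had a positive value, at 132 to 303 CPM against 139.6 to 751 CPM (1.39, SE 0.50, adjusted p = 0.352). Marco, a scavenger receptor for bacteria and particles, had 635, 987, 980.0 and 1618 CPM against 515, 116, 623 and 416 CPM (-1.21, SE 0.49, adjusted p = 0.446). Its groups did not overlap on library totals, with a gap of 623 to 635 CPM, but they overlapped after TMM scaling. Cd36, a fatty acid and oxidized lipid receptor, was at 13.4 to 571 CPM against 0 to 50.5 CPM, and its high value came from PBS p16-negative replicate 1. Cd2, an adhesion receptor listed here with AM identity, was at 197 to 669 CPM against 81.7 to 219 CPM. Over the 42 tested identity genes 24 were positive and 18 negative, with a median of 0.21 close to that of all genes. At an unadjusted p of 0.05, 2 of them were higher and 4 lower, where 6.22% and 1.15% of all genes were. Of 22 tested immediate early genes 13 were positive (median 0.05), with 1 higher and 2 lower at an unadjusted p of 0.05. The lower ones were Fos, at 179 to 444 CPM against 57.9 to 118 CPM (adjusted p = 0.338), and Fosb, at 127 to 526 CPM against 50.4 to 116 CPM (adjusted p = 0.282). Neither overlapped on library totals, and Fosb overlapped after TMM scaling. Without LPS p16-positive replicate 2 the median of the list was -0.17, with 9 positive. Gal, the neuropeptide precursor galanin, named after its values were seen, had 0, 148, 76.7 and 125 CPM against 5.6, 3.4, 16.8 and 10.2 CPM (-3.33, SE 0.73, adjusted p = 0.100). Its value of 0 in the shallowest library allows up to 190.4 CPM.

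The design allows the difference to be split into an LPS step within the p16-negative fraction and a p16 step within LPS-exposed lungs, whose log2 values add up to it. It can equally be split into a p16 step within PBS lungs and an LPS step within the p16-positive fraction. For Saa3, C1qa and Cd63 the LPS step was the larger one in either order. Saa3 differed by 3.51 (SE 0.81) in the LPS step and by 0.32 (SE 0.67) in the p16 step of the first order, and by 3.45 (SE 0.78) and 0.39 (SE 0.83) in those of the second. C1qa differed by 2.10 (SE 0.58) and 0.29 (SE 0.53) in the first and by 1.72 (SE 0.56) and 0.67 (SE 0.58) in the second, and Cd63 by 1.92 (SE 0.59) and 0.23 (SE 0.55), then 2.13 (SE 0.59) and 0.016 (SE 0.59). For Micall2 and Src the split depended on the order. The LPS and p16 steps of Micall2 were 3.52 (SE 0.84) and 0.31 (SE 0.54) in the first order and 2.05 (SE 0.65) and 1.78 (SE 0.96) in the second. Those of Src were 3.37 (SE 0.81) and -0.08 (SE 0.54), then 1.05 (SE 0.62) and 2.24 (SE 0.88). Mmp14 was higher by 3.25 in the LPS step (SE 0.57, adjusted p = 0.0177, edgeR), the only gene of 5293 (0.0189%) that passed there, and its p16 step was -0.61 (SE 0.45). This call was lost without any 1 of PBS p16-negative replicates 1, 3 and 4 or LPS p16-negative replicates 1, 2 and 3, with an adjusted p of up to 0.767. DESeq2 called 5 genes in this step, edgeR 5 without LPS p16-positive replicate 2 and 24 from only the 8 libraries of the step. In the p16-positive fraction Stac2 was the only gene called for LPS (0.0189%), at 3.06 (SE 0.56, adjusted p = 0.0369), and its adjusted p reached 0.312 when single libraries were left out. This call was kept only without PBS p16-negative replicate 1, LPS p16-negative replicate 4, LPS p16-positive replicate 2 or LPS p16-positive replicate 4, and was lost without any other library. DESeq2 called 20 genes there, edgeR 58 without LPS p16-positive replicate 2 and 0 from only the libraries of the step. Acaa1b had negative values in every step, at -1.60 (SE 0.54) for LPS and -1.11 (SE 0.56) for p16 in the first order and -1.77 (SE 0.55) and -0.95 (SE 0.53) in the second, none past the threshold.

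No gene (0%) departed from additivity of the LPS and p16 steps at an adjusted p of 0.05, with 54 genes (1.02%) at an unadjusted p of 0.05 in edgeR and 0 called by DESeq2. The p16 steps called 0 genes (0%) in PBS and 0 (0%) in LPS with edgeR and with DESeq2, with 262 and 338 genes at an unadjusted p of 0.05 in edgeR. With treatment and replicate number as a block, chosen after seeing the data, edgeR called 88 genes higher (1.66%) and 2 lower (0.0378%) in PBS and 84 higher (1.59%) and 3 lower (0.0567%) in LPS. The p16-negative and p16-positive libraries of 1 number deviated together in PBS (correlations 0.14 to 0.35) and less evenly in LPS (0.03 to 0.66). Depth also rose with the number in both PBS fractions, so these correlations do not show that same-numbered libraries came from the same mice. Without both LPS replicate 2 libraries the blocked counts were 209 in PBS and 14 in LPS, and without those of LPS replicate 1 they were 183 and 186. Without both libraries of PBS replicates 2, 3 or 4 the count in PBS was 29 to 32, and without those of PBS replicate 1 the count in LPS was 50. Where LPS p16-positive against PBS p16-negative was set against the opposite diagonal, LPS p16-negative against PBS p16-positive, which shares no library with it, 57 genes differed (1.08%), all of them higher in the p16-positive fractions. That difference is the sum of the p16 steps in PBS and in LPS. None of the acute phase, complement, matrix and lipid genes named up to here differed in this test. Over the whole lists, 1 of 13 tested acute phase and 2 of 20 tested matrix genes did. With the same block 278 genes differed, 244 higher (4.61%) and 34 lower (0.642%), with all 57 among them. Of the genes named before, Lcn2 and Tap1 were then higher, by 2.05 and 1.75 (adjusted p = 0.0256 and 0.0396), and Acaa1b was lower, by -2.08 (adjusted p = 0.0206). The blocked p16 steps in PBS and in LPS were 1.79 and 0.26 for Lcn2 and 1.53 and 0.23 for Tap1. Both genes were called in PBS only. For Acaa1b these steps were -0.94 and -1.15, with neither called. The count of 278 became 178 to 424 without the libraries of 1 treatment and number, being 424 without LPS replicate 1, 178 without PBS replicate 2, 180 without PBS replicate 4 and 179 without LPS replicate 2. In the opposite diagonal itself 9 genes were higher (0.17%) and 62 lower (1.17%). Saa3, Pf4, Mmp14 and Stac2 were among the 9, at 3.12, 2.73, 2.77 and 3.59 (adjusted p = 0.0360, 0.0466, 0.00526 and 0.000869).

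**Figure D2:**
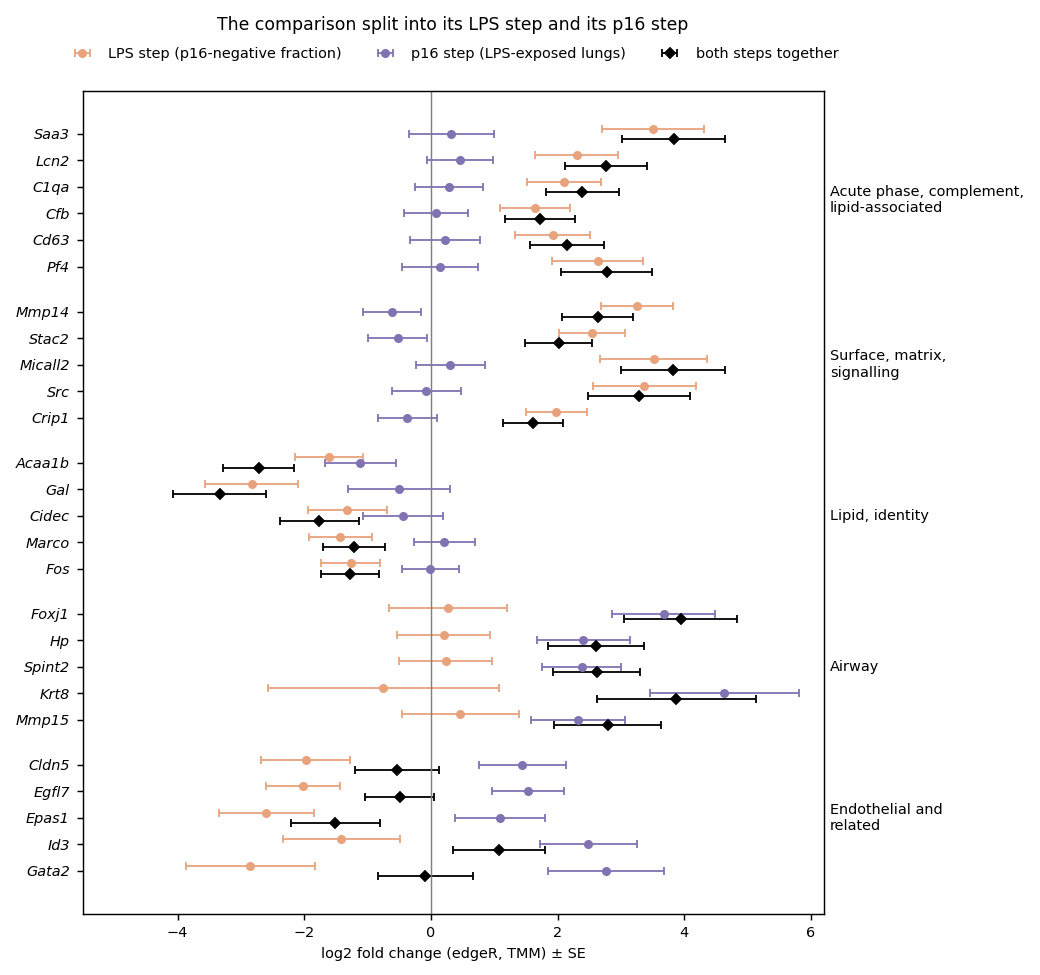
Log2 fold changes with SE from edgeR for 26 genes, split into the LPS step in the p16-negative fraction (orange), the p16 step in LPS-exposed lungs (purple) and both together (black), which is 1 of the 2 orders of splitting. In this order the LPS step of Saa3 is 3.51 of 3.83, the p16 step of Foxj1 is 3.67 of 3.95 (2.32 in the other order), and the steps of Gata2 oppose each other (-2.85 and 2.76).

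Genes of airway epithelium had large positive values, and the medians of their lists rested on 1 library. Of 16 tested ciliated-cell genes 14 were positive (median 2.55) and 9 were higher at an unadjusted p of 0.05. Of 17 secretory-cell genes 13 were positive (median 1.60, 4 higher), and of 16 genes shared by epithelia 14 were positive (median 1.80, 8 higher). LPS p16-positive replicate 2 had 0.848% of its UMIs on the ciliated list (95% Clopper-Pearson interval 0.815 to 0.881), where the other LPS p16-positive libraries had 0.0617 to 0.109% and the PBS p16-negative libraries 0.0375 to 0.178%. It had 10.3% on the secretory list (10.2 to 10.4), beside 0.281 to 0.646% in its group, and PBS p16-negative replicate 1 had 18.5% (17.8 to 19.1), beside 0.135 to 1.81%. These intervals cover counting error only. Of 34 ciliated, 23 secretory and 24 epithelial markers, 22, 19 and 17 were in the table, and none of these was at 0 in all 8 libraries.

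Without LPS p16-positive replicate 2 the ciliated median was 0.10 and that of epithelial genes 0.08. The secretory median turned to -1.85, with 2 of 17 genes positive. Over all genes the counts at an unadjusted p of 0.05 became 196 higher and 104 lower, with a median of 0.11. The acute phase and complement medians were 0.82 and 1.33 without this library, with 3 of 13 and 5 of 10 genes higher and 2 and 0 lower at an unadjusted p of 0.05. Without both PBS replicate 1 libraries they were 0.97 and 1.37. LPS p16-positive replicate 4 had the largest share of its group on both lists, at 2.57 and 0.566%, and no list medians without it are given. Without that library the log2 fold change was 3.10 for Saa3 and 1.91 for C1qa, beside 3.83 and 2.39 with it.

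**Figure D3:**
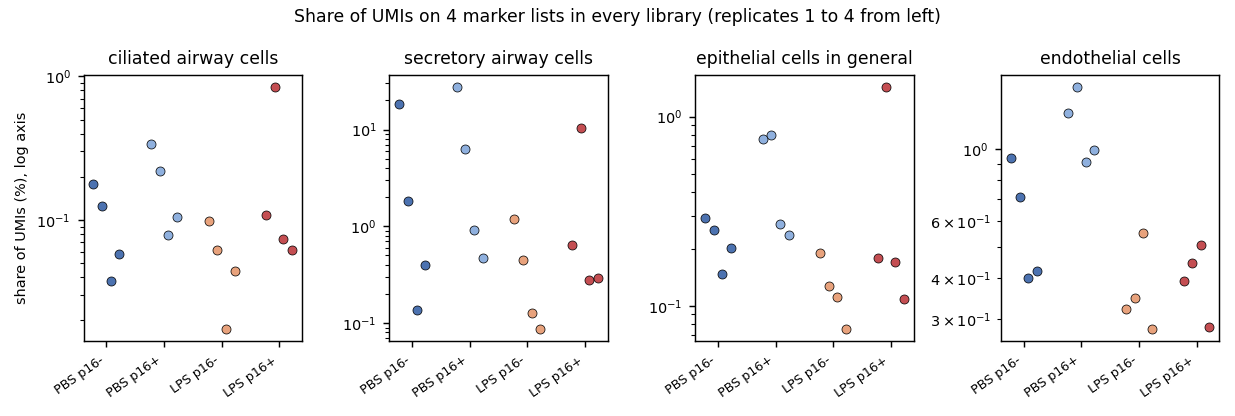
Share of UMIs (%, log axis) on the ciliated, secretory, epithelial and endothelial marker lists in each of the 16 libraries, replicates 1 to 4 from left to right. LPS p16-positive replicate 2 stands apart at 0.848% on the ciliated list, and on the endothelial list the LPS libraries lie at 0.279 to 0.551% where the PBS libraries lie at 0.401 to 1.56%.

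Foxj1, the transcription factor that switches on motile ciliogenesis, had 63.5, 214, 34.1 and 17.8 CPM in PBS p16-negative and 453, 3047, 320.1 and 123 CPM in LPS p16-positive libraries. The groups overlapped at 123 and 214 CPM, but 3 of 4 LPS p16-positive libraries were above all PBS p16-negative ones. Its fold change was 3.95 on the log2 scale (SE 0.89, adjusted p = 0.100), with an LPS step of 0.27 (SE 0.93) and a p16 step of 3.67 (SE 0.82) in the first order and 1.63 (SE 0.75) and 2.32 (SE 0.90) in the second. Ccdc78, which acts in centriole amplification, had 0, 49.3, 0 and 4.46 CPM against 112, 871, 42.1 and 33.2 CPM. The axonemal dynein gene Dnah10 was at 0 to 16.4 CPM against 15.3 to 218 CPM, and Tekt1, a tektin of ciliary microtubules, at 0 to 16.4 CPM against 13.6 to 436 CPM.

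Haptoglobin (Hp), a haemoglobin-binding plasma protein that the lung epithelium also makes, had 381, 1019.5, 187 and 214 CPM against 716, 7315, 969 and 446 CPM. The airway defence gene Bpifb1 was at 0 to 254 CPM against 33.7 to 4439 CPM. Spint2, an inhibitor of membrane serine proteases, did not overlap, at 34.1 to 65.8 CPM against 71.4 to 912 CPM (2.62, SE 0.69, adjusted p = 0.155), and neither did the predicted gene Gm1673, at 0 to 22.3 CPM against 24.7 to 882 CPM. The tight junction gene Cldn3, the membrane protease St14, the keratins Krt8 and Krt18, the metalloproteinase Mmp15 and the transcription factor Tbx1 all overlapped, with their highest value in LPS p16-positive replicate 2, at 626, 432, 248, 1021, 783 and 235 CPM. Krt8, Krt18 and Gm1673 were named after their values were seen. Without both PBS replicate 1 libraries and LPS p16-positive replicate 2 the values of Foxj1, Spint2 and Gm1673 were 2.19, 0.98 and 2.17.

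These genes differed from the opposite diagonal. Of the 57 genes called there (1.08% of all), 4 stood on the ciliated list of 16, 3 on the secretory list of 17 and 6 on the epithelial list of 16. The difference was 5.99 for Foxj1 (SE 1.20, adjusted p = 0.0252), 6.61 for Tekt1 (SE 1.48, adjusted p = 0.0322), 4.32 for Spint2 (SE 0.94, adjusted p = 0.0279) and 5.47 for Mmp15 (SE 1.14, adjusted p = 0.0257). Ccdc78, Hp, Dnah10, Bpifb1, Cldn3, St14, Krt8, Krt18, Tbx1 and Gm1673 were also called, with differences of 4.74 to 8.18. The count of 57 became 0 without any 1 of 8 libraries. These were PBS p16-negative replicates 1, 3 and 4, PBS p16-positive replicates 1 and 2, LPS p16-negative replicates 3 and 4, and LPS p16-positive replicate 2. It was 30 without LPS p16-negative replicate 2 and 211 without LPS p16-positive replicate 4. In bulk RNA, fewer or more cells of a type cannot be told apart from less or more RNA per cell, and the part of airway RNA in these values was not tested.

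**Figure D4:**
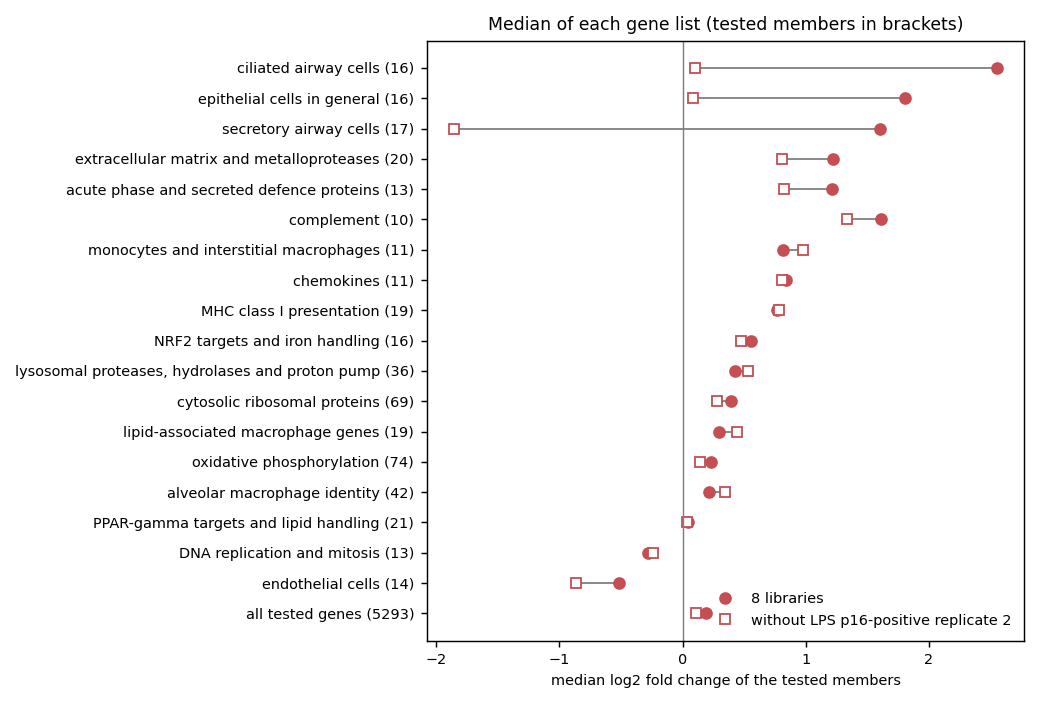
Median log2 fold change of the tested members of 18 gene lists and of all tested genes, over the 8 libraries (filled) and without LPS p16-positive replicate 2 (open). The ciliated, epithelial and secretory medians move from 2.55, 1.80 and 1.60 to 0.10, 0.08 and -1.85, while those of complement are 1.61 and 1.33.

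For the endothelial genes named here the LPS step and the p16 step had opposite signs. Of 14 tested members 12 were negative (median -0.52) and 1 was lower at an unadjusted p of 0.05. Without LPS p16-positive replicate 2 the median was -0.86 with 4 lower, and without both PBS replicate 1 libraries it was -0.20 with 0 lower. The list held 0.401 to 0.939% of UMIs in PBS p16-negative and 0.282 to 0.507% in LPS p16-positive libraries. Cldn5, the tight junction protein of capillaries, had 2539, 2269, 375 and 651 CPM against 403, 1236, 1483 and 89.3 CPM, with wide overlap (-0.53, SE 0.67, adjusted p = 1.00). Its LPS step was -1.98 (SE 0.70) and its p16 step 1.44 (SE 0.68). Egfl7, a secreted endothelial factor, had 571, 822, 239 and 321 CPM against 134, 633, 354 and 52.7 CPM, with steps of -2.02 (SE 0.59) and 1.53 (SE 0.57). Egfl7 differed from the opposite diagonal by 3.51 (SE 0.79, adjusted p = 0.0334). Epas1, the hypoxia-inducible factor of endothelium, was at 102 to 2539 CPM against 50.4 to 378 CPM, and its highest value was again in PBS p16-negative replicate 1.

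The same opposition held for Gata2, a transcription factor of blood progenitors, mast cells and endothelium, at 0 to 127 CPM against 8.5 to 37.4 CPM. Its steps of -2.85 (SE 1.01) and 2.76 (SE 0.92) left -0.09 (SE 0.75). Id3, an inhibitor of differentiation induced by bone morphogenetic proteins, was at 0 to 49.3 CPM against 16.8 to 95.3 CPM, and its steps were -1.41 (SE 0.92) and 2.49 (SE 0.76). Both differed from the opposite diagonal, by 5.34 and 5.47 (adjusted p = 0.0260 and 0.0252). Inmt, a methyltransferase of lung stroma, and Mfap4, a matrix protein of elastic fibres, were lower at 25.6 to 508 CPM against 3.4 to 30.6 CPM and 17.0 to 317 CPM against 1.7 to 25.3 CPM, both with the top value in PBS p16-negative replicate 1. Cldn5, Egfl7 and Id3 were named after their values were seen.

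Senescence genes and the checkpoint ligand PD-L1 were examined as well, since the cells were sorted on p16. Cdkn2a transcripts were at the limit of detection, with 0, 0, 25.6 and 22.3 CPM in PBS p16-negative and 0, 13.6, 0 and 25.5 CPM in LPS p16-positive libraries. The transcript therefore did not separate fractions sorted on the protein (-0.29, SE 1.01, adjusted p = 1.00), and counts at the 3′ end do not tell p16 from the other product of the locus. Cd274, which encodes PD-L1, had 0, 32.9, 42.6 and 84.7 CPM against 67.2, 27.2, 92.7 and 296 CPM. LPS p16-positive replicates 3 and 4 were above all PBS p16-negative ones, and the difference was not past the threshold (1.37, SE 0.68, unadjusted p = 0.0550, adjusted p = 0.690). Over the alternatives its value ranged from 0.26, without LPS p16-positive replicate 4, to 1.88, without PBS p16-negative replicate 4. Cmtm4, a membrane protein that stabilises PD-L1 in human cells, had 0, 0, 0 and 4.46 CPM against 16.8, 40.8, 8.42 and 15.3 CPM (adjusted p = 0.418). These values did not overlap, but they rested on 0, 0, 0 and 1 UMIs against 3, 12, 1 and 18 UMIs. The nearest values of the groups, 4.46 and 8.42 CPM, were 1 UMI each in libraries of different depth. Of 14 tested genes of PD-L1 and its regulators 13 were positive, with a median of 0.27 and 1 higher at an unadjusted p of 0.05.

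Cdkn1a, which encodes the cell cycle inhibitor p21, differed by less than its SE, at 136 to 325 CPM against 146 to 398 CPM (0.24, SE 0.50). Among p53 targets Bbc3, the pro-apoptotic BH3-only protein PUMA, had 0, 16.4, 25.6 and 26.7 CPM against 72.8, 106, 92.7 and 65.5 CPM and did not overlap (1.96, SE 0.60, adjusted p = 0.222). Phlda3, an inhibitor of AKT, was at 227 to 526 CPM against 422 to 874 CPM, and Mdm2, the p53 ubiquitin ligase, at 93.7 to 232 CPM against 160.1 to 426 CPM. Over 14 tested cell cycle inhibitors and p53 targets 8 were positive (median 0.32) with 2 higher at an unadjusted p of 0.05. Of 13 DNA replication and mitosis genes 8 were negative (median -0.28) and none passed at an unadjusted p of 0.05. Bcl2l1, the survival gene that encodes BCL-XL, was at 254 to 383 CPM against 276 to 640.0 CPM. Secreted senescence factors had 8 of 11 positive (median 0.87) and 2 higher at an unadjusted p of 0.05, with 7 of 11 positive and a median of 0.32 without LPS p16-positive replicate 2.

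Of the housekeeping groups, oxidative phosphorylation, proteasome and mitochondrial ribosomal genes had medians close to the 0.19 of all genes. Those of cytosolic ribosomal proteins, glycolysis and chaperones were larger. Cytosolic ribosomal protein genes had 59 of 69 positive (median 0.39, 4 higher at an unadjusted p of 0.05) and took 7.15 to 9.64% of UMIs in PBS p16-negative and 8.65 to 10.2% in LPS p16-positive libraries. Oxidative phosphorylation genes had a median of 0.23 over 74 genes, proteasome genes 0.15 over 24, and mitochondrial ribosomal proteins 0.13 over 47, with 2 genes in all past an unadjusted p of 0.05. All 11 glycolytic genes were positive (median 0.43, 1 higher). NRF2 targets and iron genes had 13 of 16 positive (median 0.55, 3 higher), and chaperones 15 of 19 (median 0.56, 2 higher). Markers of monocytes and interstitial macrophages had 10 of 11 positive (median 0.82, 4 higher), including C1q genes, and their summed share was 0.121 to 0.173% in PBS p16-negative and 0.140 to 0.667% in LPS p16-positive libraries. Whether such cells contributed was not tested. Neutrophil markers, with Lcn2 among them, had 5 of 12 positive (median -0.06, 3 higher and 0 lower at an unadjusted p of 0.05). Without LPS p16-positive replicate 2 the median was -0.52, with 2 higher and 1 lower. Their share was 0.0375 to 0.127% of UMIs in PBS p16-negative and 0.0590 to 0.264% in LPS p16-positive libraries.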

How the data were processed

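Bulk MARS-seq libraries (3′ RNA-seq with UMIs) of sorted alveolar macrophages were analysed. The authors processed the reads with the UTAP pipeline (version not given in the sources used here) on mm10 and deposited UMI counts per gene. The authors also deposited a signal, counts divided by DESeq2 size factors, and regularised log2 values, which were not used in tests. The columns with the authors' own fold changes and p-values were not used.

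Counts were tested with edgeR 4.0.16 (R 4.3.3), using TMM factors, quasi-likelihood F tests, a model of 4 group means over 16 libraries with 12 residual degrees of freedom, and Benjamini-Hochberg adjustment at 0.05 over genes with at least 30 UMIs. The SE given with an edgeR log2 fold change is its absolute value divided by the square root of the F statistic. It was derived from the test and not estimated separately. CPM values are UMIs scaled to a library total of 1000000. The floor was 3 UMIs, and shares carry 95% Clopper-Pearson intervals. The replicate numbers come from the labels. Deviations from group means correlated between the fractions of 1 number at 0.27, 0.14, 0.35 and 0.33 in PBS, which was read as paired, and at 0.03, 0.16, 0.19 and 0.66 in LPS. Depth rose with the number in both PBS fractions, from 15755 to 224301 UMIs in p16-negative and from 13861 to 433490 in p16-positive libraries. Pairing and depth cannot be told apart in these correlations. Blocked values of the p16 steps are given beside the others. No pair of libraries in a group agreed within counting noise (chi-square per degree of freedom 2.27 to 38.2). DESeq2 1.42.0, limma 3.58.1 voom, other scalings, filters and left-out libraries were alternatives. The scripts were tested on simulated data. Motif searches used RefSeq start regions on GRCm38.p6, and 7919 of 7946 symbols matched.

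The members and gene lists were chosen with earlier results of these data known. The genes named were to be the 12 with the largest change in each direction among those past the threshold, of which there were none, up to 4 per list by lowest p and 9 fixed genes, and any other gene is said to have been named after its values were seen.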

Additional observations from a re-analysis of the deposited data

Results flagged for a closer look

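Dixon's 95% limit for the distance of 1 value in 4 from the others assumes independent normal values. For such values about 1 in 20 of the combinations tested, or 8.4, would lie beyond it. Sparse CPM values and genes that vary together are not of that kind, so 8.4 is not the number expected here. In 31 of 168 combinations of a gene or list with a group, the highest or lowest of 4 libraries lay beyond this limit. Of these, 13 were high values of LPS p16-positive replicate 2 for single genes, at 3047 CPM for Foxj1, 871 for Ccdc78, 218 for Dnah10, 436 for Tekt1, 7315 for Hp, 4439 for Bpifb1, 912 for Spint2, 626 for Cldn3, 432 for St14, 248 for Krt8, 1021 for Krt18, 783 for Mmp15 and 882 for Gm1673. The same library was highest in its group for the ciliated (0.848% of UMIs), secretory (10.3%) and epithelial (1.44%) lists.

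LPS p16-positive replicate 4, the deepest library, was far above its group for Pf4 (1158 CPM), Pla2g2d (356 CPM) and H2-T23 (774 CPM).

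PBS p16-negative replicate 1, the shallowest library, was far above its group for Cd36 (571 CPM), Fos (444 CPM), Krt8 (63.5 CPM, which is 1 UMI), Epas1 (2539 CPM), Inmt (508 CPM) and the secretory list (18.5% of UMIs). It was far below for the complement list (0.0317% of UMIs). PBS p16-negative replicate 2 was highest for Ccdc78 (49.3 CPM), Dnah10 (16.4 CPM) and Tbx1 (16.4 CPM), and PBS p16-negative replicate 4 for Cmtm4 (4.46 CPM) and Fam20c (8.92 CPM), all at 3 UMIs or fewer.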

How the results depend on the processing

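The count of 0 genes for LPS p16-positive against PBS p16-negative was also obtained with RLE and upper-quartile factors, the edgeR filter for low counts (2794 genes), only the 8 libraries, voom with sample weights or with a replicate block by treatment and number, and without both PBS replicate 1 libraries, with or without LPS p16-positive replicate 2. It became 28 (25 higher, 3 lower) with no filter and 10 (9 higher, 1 lower) with DESeq2. With single libraries left out it ranged from 0 to 37 (0 to 34 higher, 0 to 3 lower), being 37 without LPS p16-positive replicate 4, 2 without LPS p16-positive replicate 1 (Lcn2 and Saa3) and 1 without LPS p16-negative replicate 4 (Saa3). With the number as a replicate block it was 40 (35 higher, 5 lower). Same-numbered libraries of these groups correlated at -0.07, 0.13, 0.16 and 0.23 in their deviations, and 3 of 8 correlated best with their own number. The block by number also moved the LPS steps, from 1 to 23 genes in p16-negative and from 1 to 81 in p16-positive cells. The cause of these moves was not tested.

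The 57 genes that differed from the opposite diagonal became 18 with RLE factors, 50 with DESeq2, 211 with the replicate block by number, 278 with that by treatment and number (chosen after seeing the data), 0 without both PBS replicate 1 libraries and 0 to 211 with single libraries left out. Departure from additivity stayed at 0 throughout. The unadjusted count of 390 became 612 with no filter and 193 with the edgeR filter. Non-overlapping genes numbered 165 to 297 higher and 90 to 189 lower with 1 library left out, which lets fewer values decide and was chosen after seeing the data, and 175 and 30 with TMM scaling.

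Of the 76 named genes tested, 3 changed sign. Gata2 (-0.09) was 0.026 with voom and sample weights and 0.39 without both PBS replicate 1 libraries. With single libraries left out it ranged from -0.69 to 0.37, with positive values of 0.37 and 0.33 in the absence of PBS p16-negative replicate 1 and of LPS p16-positive replicate 4. Cdkn1a ranged from -0.21 to 0.57, negative in the absence of LPS p16-positive replicate 4, and Id3 was -0.039 without the PBS replicate 1 libraries and LPS p16-positive replicate 2. Of the named genes 34 passed the threshold in at least 1 alternative. Saa3 ranged from 2.58 to 4.20, Mmp14 from 2.13 to 3.09 and Acaa1b from -3.20 to -2.42. In PBS p16-negative replicate 1 a level under 190.4 CPM was not detectable with 3 UMIs.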

Other observations

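A few further genes whose 4 values per group did not overlap stood outside the lists, and all were named after their values were seen. S100a6, a calcium-binding protein of motile and activated cells, had 317, 395, 128 and 317 CPM in PBS p16-negative and 582, 799.9, 472 and 1222 CPM in LPS p16-positive libraries (log2 1.64, SE 0.51, edgeR adjusted p = 0.231). Kcnn4, a calcium-activated potassium channel of immune cells, had 0, 82.2, 42.6 and 66.9 CPM against 151, 177, 219 and 211 CPM. Unc13d, which primes secretory granules for release, was at 0 to 17.8 CPM against 56.1 to 123 CPM, and Fam20c, a kinase of secreted proteins, at 0 to 8.92 CPM against 16.8 to 125 CPM. Pstpip1, a cytoskeletal adaptor that binds pyrin, was at 59.6 to 98.7 CPM against 167 to 336 CPM. None of these genes passed the threshold, with adjusted p of 0.126 to 0.231, and their p16 steps in LPS lay between -0.33 and 0.15. With the block by treatment and number, the p16 steps in PBS and in LPS were 2.32 and 0.10 for Unc13d. They were 1.75 and -0.41 for Fam20c, 1.28 and -0.085 for Pstpip1, 0.62 and 0.073 for S100a6, and 0.35 and -0.11 for Kcnn4. None of these steps passed the threshold, and for Unc13d, Fam20c and Pstpip1 the size of the p16 step differed between treatments.

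On the lower side, F10, which encodes coagulation factor X, had 317, 296, 341 and 446 CPM against 173, 68.1, 143 and 169 CPM (-1.19, SE 0.46, adjusted p = 0.429), with an LPS step of -0.31 and a p16 step of -0.88. Its p16 step in PBS was -1.57 with the block by treatment and number (edgeR adjusted p = 0.0319). Xist, the RNA of the inactive X chromosome in these female mice, had 444, 32.9, 128 and 71.3 CPM against 22.4, 13.6, 25.3 and 21.3 CPM (-2.38, SE 0.71, adjusted p = 0.219).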
